A study of Mus musculus with 36 samples.

Results

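The genes described here are 10 cyclin and proliferation genes. They were measured by RNA-seq in mouse liver, in cells freshly isolated from it and in cultured hepatocytes. They are the cyclins Ccnd1, Ccnd2, Ccne1, Ccne2, Ccna2 and Ccnb1, the kinase Cdk1, and Mki67, Top2a and Mcm2. They were taken by gene symbol, through the Ensembl identifiers, from a count table of 54232 genes, and all 10 had a row. The table covered 12 female mice, 6 hepatocyte-specific Nampt knockout mice (HNKO, Nampt fl/fl with Alb-Cre) and 6 floxed littermates without Cre (WT), on a C57BL6/BomTac background. All mice went onto a purified amino-acid-defined diet at 10 to 12 weeks of age and stayed on it for 3 to 5 weeks. Each mouse gave a piece of the median lobe frozen before collagenase digestion (L), a washed cell suspension of the remaining lobes before plating (CS), and primary hepatocytes after 24 h in culture on collagen (PH). The diet, the floxed alleles in both genotypes and the isolation were shared by all groups, and there was no mouse without floxed alleles. The albumin promoter drives Cre in hepatocytes, and whole liver also held other cells, in which Nampt was not measured apart.

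Progress through the cell cycle is driven by cyclins that are made and destroyed in turn and that switch on cyclin-dependent kinases. D-type cyclins link mitogen and adhesion signals to the G1 kinases Cdk4 and Cdk6, E-type cyclins carry the cell into S phase with Cdk2, cyclin A acts in S phase and G2, and cyclin B with Cdk1 starts mitosis. Hepatocytes of the adult liver are mostly quiescent and re-enter the cycle after loss of tissue, and isolation and plating are known to move them from G0 towards G1.

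The labels were first checked on the targeted gene. Nampt stood at 55.6 to 121 CPM in WT L, where CPM are counts scaled to library sizes adjusted by the TMM method, and at 31.3 to 52.1 in HNKO L. In CS it stood at 58.5 to 159 CPM in WT and 27.8 to 59.1 in HNKO, and in PH at 175 to 241 CPM against 69.1 to 87.3. The fitted HNKO level was 50.3%, 42.5% and 39.4% of WT in L, CS and PH (adjusted p = 0.0142, 0.00585 and 0.000441, edgeR quasi-likelihood test). The L library of WT mouse 558 was left out, because its mean Spearman correlation with the other L libraries was 0.777, below the 0.941 or more of every library kept. That left 5 libraries in WT L and 6 in each other group, with 8698735 to 20350519 counted fragments each. Hepatocyte markers (8 genes, Alb among them) summed to 95500 to 202000 CPM in L and CS and to 30500 to 59200 CPM in PH.

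The HNKO mouse 552 stood apart in the genes of this report before any group was compared. It also stood apart across the genes that passed the filter. Among the libraries kept, its mean Spearman correlation with its own sample type was the lowest in L (0.9406), CS (0.961) and PH (0.9604). The next lowest libraries were at 0.9589 in L, 0.9778 in CS and 0.97 in PH, none of them from this mouse. In its CS library Mki67 was at 70.1 CPM against 0.915 to 7.12 in the other 5 HNKO mice, Top2a at 43.3 against 0.153 to 4.75, and Ccna2 at 24.0 against 0.610 to 2.37. Of 32 further G2 and mitosis genes, 31 had their highest HNKO value in this mouse in CS, 31 in L and 23 in PH. Ccnd1 did not follow: mouse 552 had the lowest HNKO value of Ccnd1 in L (130 CPM) and CS (147 CPM). Markers of other liver cells were also high in its CS library, with 8 Kupffer cell and macrophage markers at a summed 1310 CPM against 292 to 417, 8 endothelial markers at 1210 against 472 to 971, 8 stellate cell and fibroblast markers at 797 against 150 to 458, and 10 lymphocyte markers at 31.9 against 7.66 to 10.4. In its L library the 8 cholangiocyte markers summed to 1440 CPM against 86.9 to 386. Hepatocyte markers summed to 110000 CPM in its L library and 143000 in CS, inside the range of the other HNKO mice. Their part in the values of mouse 552 was not tested, and results that rest on this mouse are given with and without it.

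**Figure D1:**
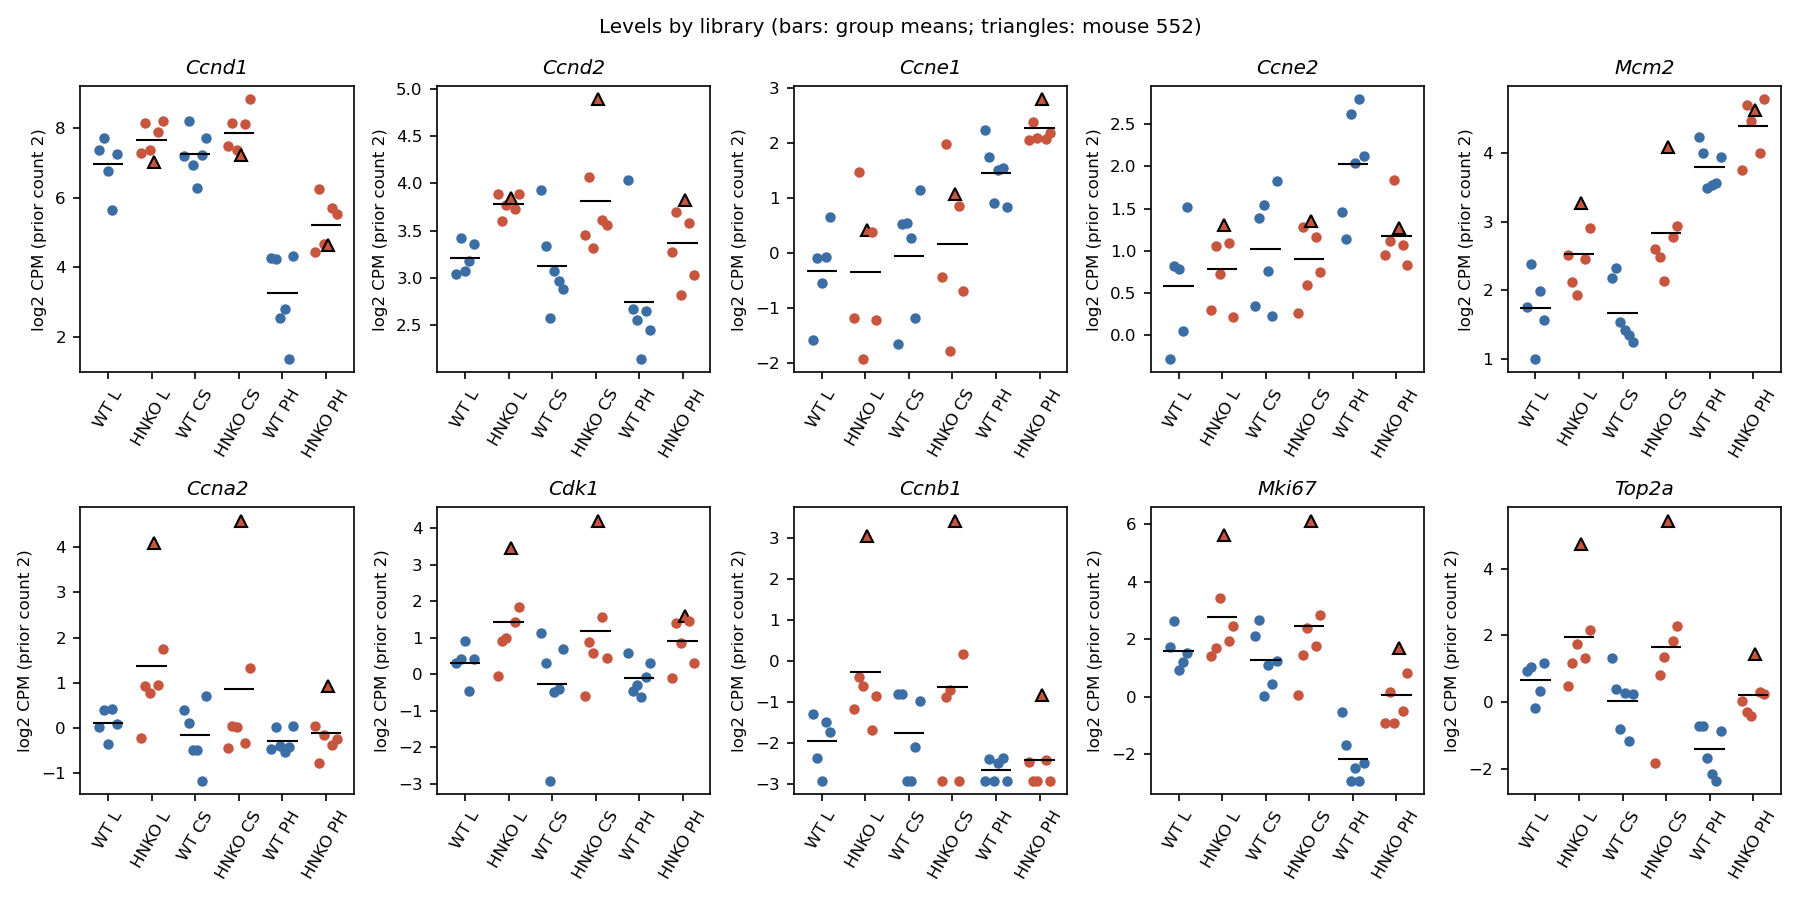
Level of each gene in each library on a log2 CPM scale with a prior count of 2 (y axis), in the 6 groups (x axis), with 1 point per library, bars at the group means and mouse 552 as triangles. Ccnd1 dropped in PH, Mcm2 and Ccne1 were highest in PH, and mouse 552 lay above the other HNKO mice for Ccna2, Ccnb1, Cdk1, Mki67 and Top2a in L and CS.

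Set per kb of exon, so that genes can be compared with each other, Ccnd1 was the most abundant of the 10 in every group. Its mean was 29.1 CPM per kb in WT L and 2.56 in WT PH, and the next gene in WT L was Ccnd2 at 0.980 CPM per kb. Ccnb1, the mitotic cyclin, was the lowest in 5 of the 6 groups, the exception being HNKO L, where Ccne1 at 0.363 CPM per kb lay below Ccnb1 at 0.404. In WT PH the order changed to Ccnd1, Mcm2 (2.02 CPM per kb), Ccne2 (1.23) and Ccne1 (1.05), with Top2a (0.0315), Mki67 (0.0141) and Ccnb1 (0.00665) at the bottom. The low genes rest on few reads. Ccnb1 had 0 or 1 count in every WT PH library and at most 7 in any WT library, so it did not pass the filter on low counts, and the other 9 genes were among the 14932 tested.

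The first question was what happened to these genes when hepatocytes were plated. In WT mice, Ccnd1 and Mki67 fell from CS to PH, while Mcm2, Ccne1 and Ccne2 rose. In HNKO mice Ccnd1, Mki67, Top2a and Ccna2 fell, and Mcm2 and Ccne1 rose. This made 5 of 9 tested genes called in WT, where the comparison called 75.1% of all genes tested (38.3% higher and 36.8% lower in PH), and 6 of 9 in HNKO, beside 75.7% (38.1% higher and 37.6% lower). Against L, 6 of 9 were called in each genotype, beside 75.7% in WT and 76.2% in HNKO. These counts alone do not set the genes apart. The CPM ranges of CS and PH did not overlap for 3 genes in WT (Ccnd1, Mki67 and Mcm2) and 2 in HNKO (Ccnd1 and Ccne1), which held for 54.5% and 53.1% of all genes tested. The median log2 change of the 9 genes was -0.31 in WT and -1.17 in HNKO, beside 0.0535 and 0.0276 over all genes tested. Without mouse 552 the median was -0.32 in both WT and HNKO.

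Ccnd1 encodes cyclin D1, the D-type cyclin that the liver induces in regeneration. In WT mice 544, 548, 554, 556, 558 and 564 it stood at 146, 293, 122, 77.7, 148 and 209 CPM in CS and at 19, 18.7, 5.68, 6.81, 2.42 and 19.8 CPM in PH. Every PH value was below every CS value, and the level fell in 6 of 6 mice. In HNKO mice 540, 542, 546, 552, 562 and 566 it went from 178, 282, 166, 147, 276 and 455 CPM in CS to 21.7, 76.1, 25.2, 24.7, 51.5 and 45.7 CPM in PH, again in 6 of 6 mice and without overlap. The fall was 13.8-fold in WT (log2 change -3.79 ± 0.45 SE, adjusted p = 4.19e-09) and 6.15-fold in HNKO (-2.62 ± 0.42, adjusted p = 1.54e-06). Against L the log2 change was -3.51 ± 0.45 in WT and -2.37 ± 0.42 in HNKO, and all 4 calls held under each of the 19 alternatives tried.

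Ccnd2, the D-type cyclin expressed at a lower level here, moved little. WT means were 9.22 ± 1.12 CPM in L (SD, n = 5), 9.04 ± 3.29 in CS and 7.34 ± 4.43 in PH (n = 6), and HNKO means were 13.7 ± 1.04, 15.1 ± 7.43 and 10.6 ± 2.81 CPM (n = 6). The ranges of neighbouring groups overlapped throughout the order of means. The change from CS to PH missed the threshold in both genotypes, but with mouse as a replicate block the HNKO change was -0.47 ± 0.20 (adjusted p = 0.0402). The WT mouse 544 lay apart, at 16.3 CPM in PH against 4.27 to 6.24 in the others. Without it the WT change from CS to PH was called as well (-0.51, adjusted p = 0.049). The sign of both changes depends on the TMM factors, which were 0.7511 to 0.9267 in CS and 1.197 to 1.418 in PH. As a share of total counts, Ccnd2 was higher in PH than in CS in most mice of each genotype.

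Ccne1 encodes cyclin E1, the partner of Cdk2 at the entry into S phase. In WT it stood at 0.189, 1.32, 1.32, 1.07, 0.312 and 2.09 CPM in CS and at 4.57, 3.21, 1.76, 2.72, 2.79 and 1.66 CPM in PH, in the same order of mice as above. The ranges overlapped, since mouse 564 had 2.09 CPM in CS and 1.66 in PH, and the level rose in 5 of 6 mice. In HNKO it stood at 0.610, 3.85, 0.161, 1.98, 1.68 and 0.491 CPM in CS and at 4.05, 5.13, 4.12, 6.84, 4.10 and 4.44 CPM in PH, higher in PH in 6 of 6 mice and without overlap. The rise was 2.66-fold in WT (1.41 ± 0.56, adjusted p = 0.0238) and 3.26-fold in HNKO (1.70 ± 0.54, adjusted p = 0.00518). The WT call was lost without mouse 544 or mouse 558 (adjusted p up to 0.128), and against L the WT rise was 1.86 ± 0.61 (adjusted p = 0.00677) and the HNKO rise 2.32 ± 0.56 (adjusted p = 0.000386).

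Ccne2 encodes cyclin E2, a second partner of Cdk2. In WT it rose 2.07-fold from CS to PH (1.05 ± 0.32, adjusted p = 0.00427), from 1.13, 2.48, 2.78, 1.56, 1.04 and 3.43 CPM to 2.62, 2.08, 6.0, 3.99, 6.82 and 4.23 CPM. The level rose in 5 of 6 WT mice, mouse 548 being the exception, and the ranges overlapped. In HNKO the values were 1.07 to 2.42 CPM in CS and 1.65 to 3.46 CPM in PH, 3 mice were higher and 3 lower in PH, and the change did not pass the test.

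Mcm2 is a subunit of the MCM helicase that is loaded on origins in G1 and unwinds DNA in S phase. In WT it stood at 4.40, 4.90, 2.78, 2.54, 2.39 and 2.24 CPM in CS and at 18.8, 15.9, 11.1, 11.4, 11.8 and 15.2 CPM in PH. In HNKO it stood at 5.95, 5.49, 4.27, 16.9, 6.71 and 7.53 CPM in CS and at 13.3, 25.9, 22.1, 24.7, 15.9 and 27.6 CPM in PH. It rose in 12 of 12 mice, and the groups overlapped only through the CS library of mouse 552. The rise was 4.30-fold in WT (2.10 ± 0.29, adjusted p = 9.86e-08) and 2.76-fold in HNKO (1.46 ± 0.27, adjusted p = 1.53e-05), and 3.47-fold in HNKO without mouse 552 (1.80 ± 0.24, adjusted p = 1.2e-07).

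Mki67 encodes Ki-67, a protein of the chromosome surface that cells carry while they cycle and lose in G0. In WT it stood at 4.21, 6.28, 0.879, 2.05, 1.25 and 2.24 CPM in CS and at 0.556, 0.178, 0, 0.047, 0 and 0.0693 CPM in PH. Those PH values came from 14, 3, 0, 1, 0 and 1 counts, so only mouse 544 held more than a few reads, and no PH value reached the lowest CS value. In HNKO it went from 0.915, 2.62, 5.16, 70.1, 3.30 and 7.12 CPM in CS to 0.400, 0.980, 0.407, 3.07, 0.578 and 1.65 CPM in PH. It fell in 12 of 12 mice, 17.6-fold in WT (-4.14 ± 1.12, adjusted p = 0.00128) and 12.2-fold in HNKO (-3.61 ± 0.86, adjusted p = 0.000369). Without mouse 552 the HNKO fall was 4.80-fold (-2.26 ± 0.61, adjusted p = 0.00137).

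Top2a encodes topoisomerase II alpha, which untangles chromosomes in S phase and mitosis. In WT it went from 2.39, 1.17, 0.440, 1.07, 0.312 and 1.04 CPM in CS to 0.477, 0.475, 0.180, 0.0939, 0.0620 and 0.416 CPM in PH. It was lower in PH in 6 of 6 WT mice with overlapping ranges, and the change was not called (-1.96 ± 0.96, adjusted p = 0.065). It was called with mouse as a replicate block (-1.91 ± 0.51, adjusted p = 0.00157) and without mouse 552 (-1.97 ± 0.55, adjusted p = 0.00196). Mouse 552 is HNKO, so leaving it out removed no WT library, but the estimate of spread is shared over all 6 groups. Against L the WT fall was called (-2.42 ± 0.97, adjusted p = 0.0239). In HNKO it fell 7.84-fold from CS to PH (-2.97 ± 0.79, adjusted p = 0.00119), and 2.85-fold without mouse 552 (-1.51 ± 0.52, adjusted p = 0.0103).

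Ccna2 encodes cyclin A2, and its call from CS to PH in HNKO rested on mouse 552. Its HNKO values were 0.610, 0.901, 0.887, 24.0, 0.659 and 2.37 CPM in CS and 0.900, 0.452, 0.762, 1.77, 0.636 and 0.713 CPM in PH, and the call (-2.45 ± 0.74, adjusted p = 0.00349) was lost without that mouse (-0.62 ± 0.38, adjusted p = 0.14). Against L the HNKO fall was called with it (-2.24 ± 0.74, adjusted p = 0.00685) and without it (-1.39 ± 0.37, adjusted p = 0.00119). In WT its group means were 0.976 ± 0.231 CPM in L (SD, n = 5), 0.853 ± 0.440 in CS and 0.701 ± 0.153 in PH (n = 6), with no call. Cdk1, the mitotic kinase, stood at 0 to 2.08 CPM in WT CS and 0.517 to 1.35 CPM in WT PH, and at 0.534 to 18.3 CPM in HNKO CS and 0.8 to 2.87 CPM in HNKO PH. It had no call in culture, and its HNKO change from CS to PH was -1.17 ± 0.62 with mouse 552 and 0.14 ± 0.46 without it.

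Ccnb1 encodes cyclin B1, which drives mitosis with Cdk1. It stood at 0 to 0.44 CPM in WT CS, and in HNKO CS at 0, 0.41, 0.484, 10.5, 0 and 0.983 CPM, with mouse 552 far above the others. It had 0 or 1 count in 11 of 12 PH libraries and 11 counts in the PH library of mouse 552. A count of 0 in these PH libraries leaves room for up to 3 counts, and counting error is the only error in that limit.

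**Figure D2:**
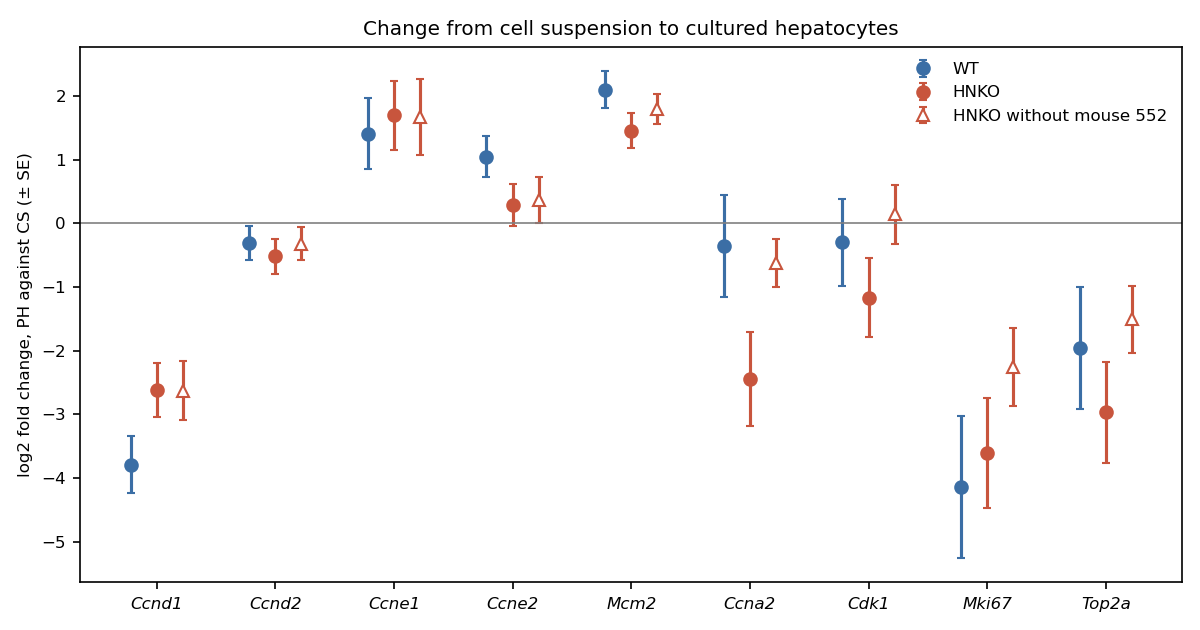
Log2 fold change from CS to PH (y axis, points with standard errors of the edgeR fit) for the 9 tested genes (x axis) in WT, in HNKO and in HNKO without mouse 552. Mcm2 and Ccne1 lay above 0 and Ccnd1 and Mki67 below 0 in all 3 fits, while Ccna2 and Cdk1 in HNKO moved towards 0 without mouse 552.

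Markers of other liver cells also changed over the same step, and in such bulk samples fewer cells of a type and less RNA per cell cannot be told apart. Of 8 Kupffer cell and macrophage markers, 6 fell and 1 rose from CS to PH in WT, and 7 fell and 1 rose in HNKO. Their summed level nevertheless overlapped between the groups, at 163 to 514 CPM in WT CS and 176 to 517 CPM in WT PH. Clec4f, the Kupffer cell lectin, fell 92.9-fold in WT and 107-fold in HNKO, and Clec4g of sinusoidal endothelium fell 838-fold and 693-fold. The 8 endothelial markers as a sum changed less, from 332 to 663 CPM in WT CS to 127 to 214 CPM in WT PH. In HNKO that sum was 472 to 1210 CPM in CS and 129 to 254 CPM in PH. Of 8 lymphocyte markers tested, 7 fell in WT and 6 in HNKO, and their summed level was 5.13 to 14.2 CPM in WT CS and 0.277 to 2.62 CPM in WT PH. Of 8 cholangiocyte markers 3 rose in WT and 1 in HNKO, with summed levels of 7.18 to 24.8 CPM in WT CS and 28.3 to 223 CPM in WT PH, which did not overlap. All 8 hepatocyte markers fell, with medians of -2.99 in WT and -3.77 in HNKO. The part of these changes in the values of the 10 genes was not tested.

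The promoters of the genes that moved in opposite directions are shown to set their sequences beside the counts. RefSeq windows from 250 bases before to 50 after the transcription start (GRCm38.p6) were at hand for 6 of the 10 genes, Ccne1, Ccnb1, Mki67, Top2a, Mcm2 and Cdk1, all on the minus strand. The windows of Mcm2 (chr6:88898731-88899030) and Ccne1 (chr7:38107441-38107740), which rose in PH, and of Mki67 (chr7:135716330-135716629) and Top2a (chr11:99024140-99024439), which fell in 1 or both genotypes, are written 5′ to 3′ along the gene, with the searched motifs in capitals.
Mcm2: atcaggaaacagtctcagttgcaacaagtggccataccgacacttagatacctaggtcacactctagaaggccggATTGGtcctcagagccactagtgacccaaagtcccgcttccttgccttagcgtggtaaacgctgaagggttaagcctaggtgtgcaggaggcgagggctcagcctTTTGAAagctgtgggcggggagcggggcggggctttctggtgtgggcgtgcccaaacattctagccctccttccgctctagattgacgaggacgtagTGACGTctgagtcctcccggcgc
Ccne1: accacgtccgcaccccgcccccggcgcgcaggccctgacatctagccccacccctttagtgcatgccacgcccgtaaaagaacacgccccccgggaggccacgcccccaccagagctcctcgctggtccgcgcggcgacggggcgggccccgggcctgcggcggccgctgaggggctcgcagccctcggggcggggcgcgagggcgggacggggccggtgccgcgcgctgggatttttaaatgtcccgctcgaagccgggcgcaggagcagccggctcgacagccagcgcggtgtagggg
Mki67: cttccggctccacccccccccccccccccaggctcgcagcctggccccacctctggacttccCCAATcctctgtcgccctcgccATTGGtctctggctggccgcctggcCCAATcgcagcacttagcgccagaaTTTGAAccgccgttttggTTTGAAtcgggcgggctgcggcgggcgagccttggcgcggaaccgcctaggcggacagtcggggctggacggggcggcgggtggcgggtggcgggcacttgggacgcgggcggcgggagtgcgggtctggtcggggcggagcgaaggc
Top2a: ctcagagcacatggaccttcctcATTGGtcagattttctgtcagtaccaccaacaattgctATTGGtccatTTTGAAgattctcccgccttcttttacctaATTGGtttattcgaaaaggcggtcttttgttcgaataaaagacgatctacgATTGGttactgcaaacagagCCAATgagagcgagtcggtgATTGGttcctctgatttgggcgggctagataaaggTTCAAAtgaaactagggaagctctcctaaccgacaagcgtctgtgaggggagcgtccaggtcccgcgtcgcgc

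The letters searched on both strands were CCAAT, the element bound by NF-Y, TTTGAA, the cell cycle homology region of late cell cycle genes, the E2F-like TTTGGCG and its variant TTTCCCG, the ACGTCA of cAMP response elements and the TGACTCA of AP-1 sites, and no matches overlapped. CCAAT stood 6 times in the Top2a window, 3 times in that of Mki67, 1 time in that of Mcm2 and not in that of Ccne1, and 37.4% of 32851 mouse promoter windows of this length held it at least 1 time. TTTGAA stood in 2 copies in both the Mki67 and the Top2a windows and in 1 copy in the Mcm2 window, with 17.9% of all windows holding it. The Mcm2 window also held ACGTCA, found in 7.51% of windows, downstream of the start. Of the 6 genes, 5 held CCAAT (all but Ccne1) and 4 held TTTGAA (Mki67, Top2a, Mcm2 and Cdk1), and none held TTTGGCG (1.56% of windows), the variant TTTCCCG (3.39%) or the AP-1 letters TGACTCA (5.20%). The matches are letters only, and binding was not measured.

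The other genes of the cycle were counted in the same comparison, to be read beside the 38.3% of all genes tested that were higher and 36.8% lower in PH in WT, and the 38.1% and 37.6% in HNKO. Of 10 further G1 and S phase kinases and cyclins, 7 rose from CS to PH and 0 fell in each genotype, with medians of 0.63 in WT and 0.62 in HNKO. They included Cdk6 (1.49 ± 0.15 in both WT and HNKO) and Cdk4 (0.79 ± 0.09 in WT), the kinase partners of cyclin D, and Cdk7 (0.59 ± 0.09 in WT), the kinase that activates the others. Without mouse 552, 7 rose and 1 fell in each genotype.

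Of 26 replication licensing and DNA synthesis genes, 14 rose and 5 fell in WT, and 6 rose and 5 fell in HNKO. Without mouse 552 it was 12 rising and 4 falling of 25 tested in HNKO. Mcm6, another helicase subunit, rose with Mcm2 (3.65 ± 0.39 in WT, 1.99 ± 0.36 in HNKO), whereas Mcm10, which acts when origins fire, fell (-4.59 ± 0.29 in WT, -4.09 ± 0.29 in HNKO), as did the thymidine kinase Tk1 (-5.84 ± 0.38 in WT, -4.52 ± 0.35 in HNKO).

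Of 27 tested G2 and mitosis genes, 2 rose and 8 fell in WT, and 1 rose and 18 fell in HNKO, so the falling count in WT lay below the share over all genes. Without mouse 552 the counts were 4 rising and 11 falling of 26 in WT, and 3 rising and 11 falling in HNKO. Cenpa, the centromeric histone, fell in both genotypes (-2.18 ± 0.26 in WT, -2.45 ± 0.25 in HNKO), and so did the phosphatase Cdc25b (-4.02 ± 0.70 in WT, -3.15 ± 0.58 in HNKO) and the F-box protein Ccnf (-1.84 ± 0.34 in WT, -1.58 ± 0.33 in HNKO).

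Of 10 CDK inhibitors and pocket proteins, 3 rose and 4 fell in WT, and 3 rose and 6 fell in HNKO. Cdkn1a, which encodes the inhibitor p21, rose most (5.44 ± 0.50 in WT, 3.97 ± 0.46 in HNKO), and Cdkn2c (-2.18 ± 0.19 in WT, -1.96 ± 0.18 in HNKO) and the pocket protein Rbl2 (-1.67 ± 0.12 in WT, -1.43 ± 0.12 in HNKO) fell. Of 10 E2F family genes, 5 rose and 4 fell in WT, and 5 rose and 3 fell in HNKO, with E2f4 (1.6 ± 0.10 in WT, 1.69 ± 0.10 in HNKO) and its partner Tfdp1 (1.66 ± 0.11 in WT, 1.24 ± 0.11 in HNKO) among those that rose. Of 15 mitogens, receptors and Myc-related genes, 7 rose and 3 fell in WT, and 8 rose and 1 fell in HNKO. The EGF receptor ligands Tgfa (2.51 ± 0.12 in WT, 2.09 ± 0.12 in HNKO) and Areg (8.08 ± 0.61 in WT, 4.78 ± 0.47 in HNKO) were among those that rose.

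**Figure D3:**
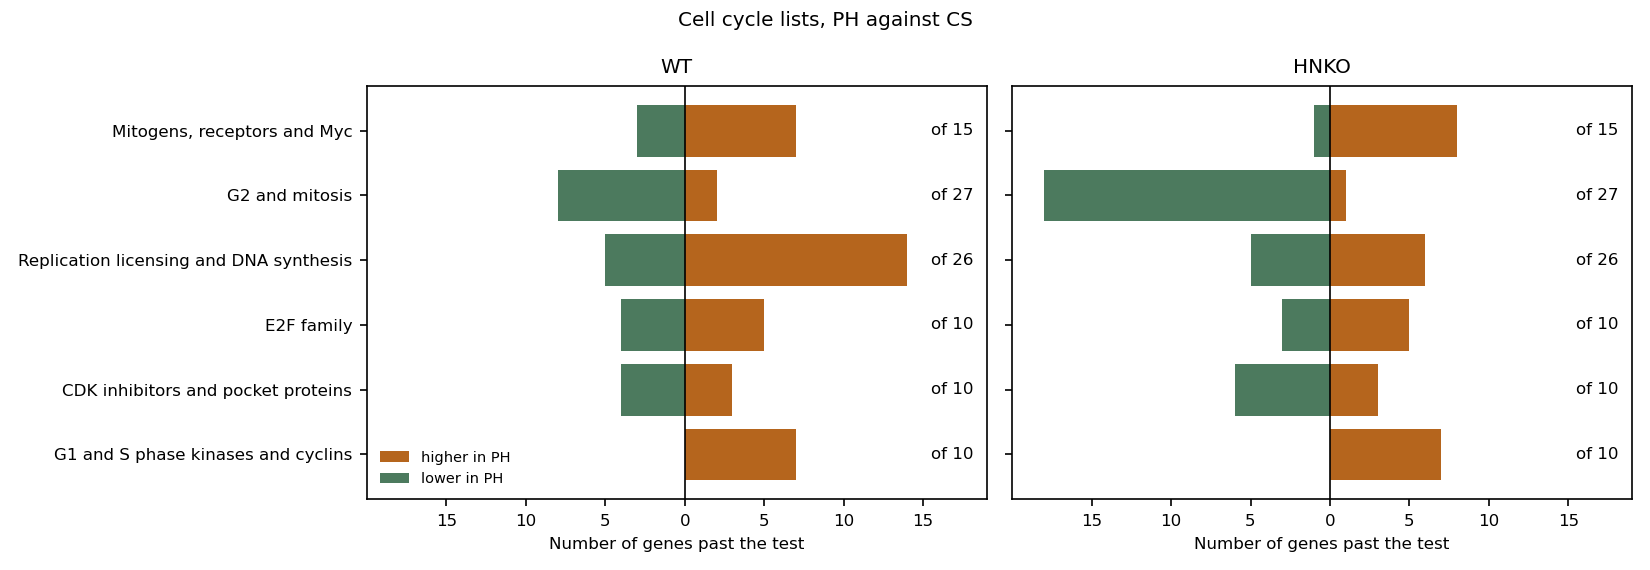
Number of genes of each cell cycle list past the test from CS to PH in WT and HNKO (x axis, bars to the right for genes higher in PH and to the left for genes lower), with the number tested beside each bar. In WT 14 of 26 replication genes rose, and in HNKO 18 of 27 G2 and mitosis genes fell, a count that was 11 of 26 without mouse 552.

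The next question was whether loss of Nampt changed these genes. In PH 2 of the 9 tested genes were called between genotypes, Ccnd1 higher and Ccne2 lower in HNKO, where the same test called 12.8% of all genes tested (5.14% higher and 7.67% lower). The median log2 difference of the 9 genes was 0.77 (0.65 without mouse 552), beside 0.00491 over all genes tested. Ccnd1 in PH was 12.1 ± 7.92 CPM in WT and 40.8 ± 21.2 CPM in HNKO (SD, n = 6 and 6), and the highest WT value, 19.8 CPM in mouse 564, was below the lowest HNKO value, 21.7 CPM in mouse 540. The difference was 3.38-fold (1.76 ± 0.42, adjusted p = 0.00663), and 3.66-fold without mouse 552 (1.87 ± 0.43, adjusted p = 0.00816). It missed the threshold when only the PH groups were fitted (adjusted p = 0.0627).

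Ccne2 in PH was 4.29 ± 1.85 CPM in WT and 2.20 ± 0.653 CPM in HNKO, with overlapping ranges, since WT mouse 548 was at 2.08 and HNKO mouse 546 at 3.46. It was lower in HNKO by -0.96 ± 0.32 (adjusted p = 0.0412), a call that 11 of 18 alternatives lost, among them the fits without mouse 552 (adjusted p = 0.0662) and without mouse 554 (adjusted p = 0.133). Mki67 and Top2a in PH lay higher in HNKO without passing the test, at 0 to 0.556 CPM in WT and 0.400 to 3.07 CPM in HNKO for Mki67 (2.87 ± 1.15, adjusted p = 0.0939), and at 0.0620 to 0.477 CPM against 0.610 to 2.60 CPM for Top2a (2.02 ± 0.93, adjusted p = 0.148). The Top2a ranges did not overlap, nor did those of Ccnd1, both higher in HNKO, which held for 0.824% of all genes tested. Without mouse 552 Mki67 was called (2.28 ± 0.74, adjusted p = 0.0488), as it was without WT mouse 544 (4.27, adjusted p = 0.047) and by DESeq2 (3.01, adjusted p = 0.0139). Without mouse 544 Ccnd2 was called too (0.93, adjusted p = 0.00206).

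Markers of other cells also differed between the PH groups. Of 8 stellate cell and fibroblast markers 3 were higher and 1 lower in HNKO PH, and their summed level was 64.6 to 238 CPM in WT and 81.1 to 346 CPM in HNKO. Of 8 cholangiocyte markers 2 were higher, with summed levels of 28.3 to 223 CPM in WT and 86.1 to 463 CPM in HNKO. Of 8 hepatocyte markers 7 were lower, with summed levels of 36600 to 59200 CPM in WT and 30500 to 45900 CPM in HNKO. Without mouse 552 the counts were 1 higher and 1 lower for stellate markers, 2 higher for cholangiocyte markers and 6 lower for hepatocyte markers. The upper ends in HNKO PH were then 214 CPM for stellate and 371 CPM for cholangiocyte markers. The part of these markers in the Ccnd1 difference was not tested.

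The difference in Ccnd1 could also be asked of the change in culture, since the fall in WT was larger than that in HNKO. The genotype difference in PH minus that in CS was 1.16 ± 0.57 (adjusted p = 0.353), and with mouse as a replicate block it was called (1.28 ± 0.32, adjusted p = 0.0433). PH minus L gave 1.14 ± 0.59 (adjusted p = 0.30), and 1.03 ± 0.32 with the block (adjusted p = 0.0746). For Ccne2 the differences were -0.76 ± 0.46 (PH minus CS, adjusted p = 0.468) and -1.09 ± 0.48 (PH minus L, adjusted p = 0.219). No member was called in either difference without the block by edgeR or DESeq2, with 0 of 9 at an unadjusted p under 0.05 for PH minus CS and 1 of 9 for PH minus L, where edgeR called 0.221% and 1.58% of all genes tested. For CS minus L, 0 of 9 genes passed in either tool or had an unadjusted p under 0.05, and edgeR called 0.0% of all genes tested.

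**Figure D4:**
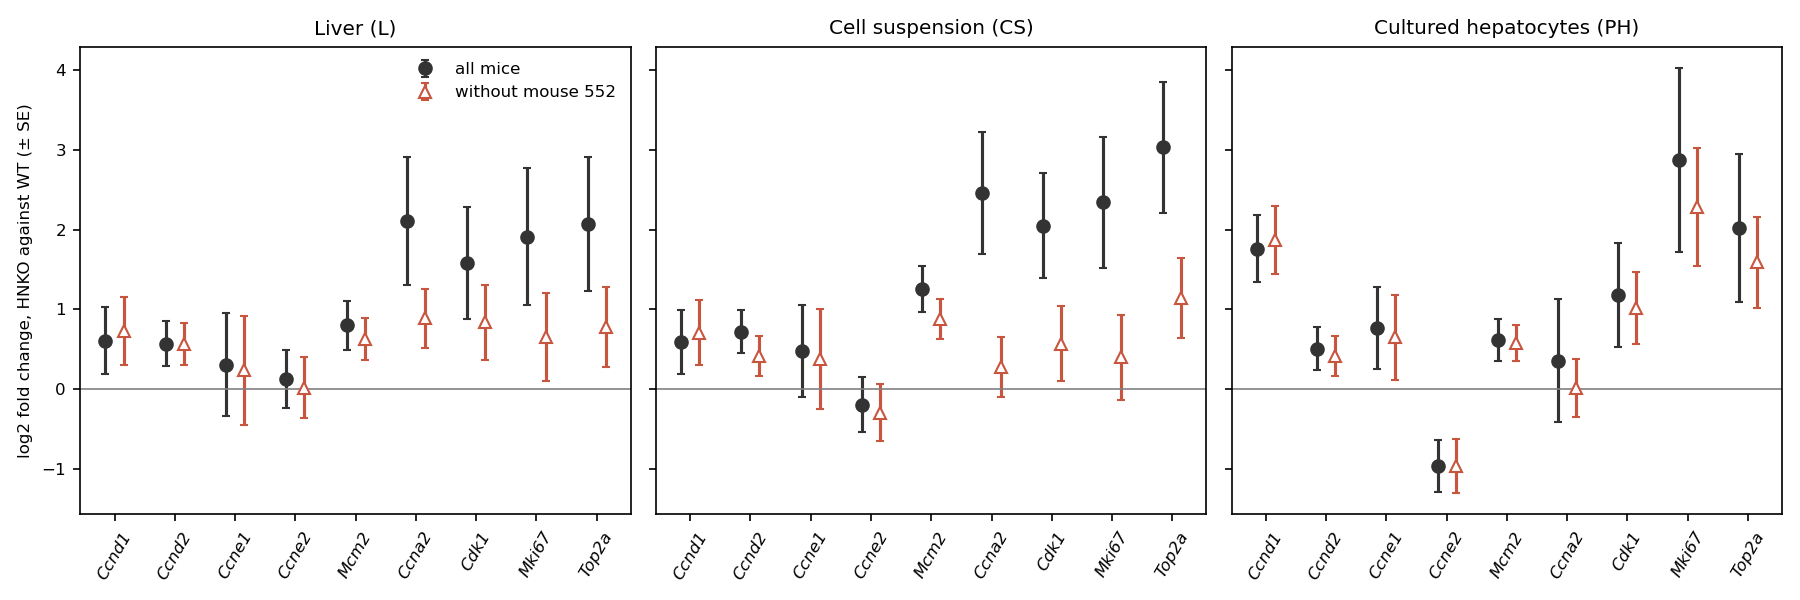
Log2 fold difference of HNKO against WT (y axis, points with standard errors of the edgeR fit) for the 9 tested genes (x axis) in L, CS and PH, with all mice and without mouse 552. Ccna2, Cdk1, Mki67 and Top2a moved towards 0 in L and CS without mouse 552, and Ccnd1 in PH stayed at 1.76 and 1.87.

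In L and CS none of the 9 genes was called between genotypes by edgeR, where 1.51% (L) and 0.0268% (CS) of all genes tested were called. At an unadjusted p under 0.05 there were 5 in L and 6 in CS, and DESeq2 called 0 in L and 3 in CS (Ccna2, Top2a and Mcm2). The shares above do not apply to these counts, and the shares over all genes at these criteria are not given here. The counts therefore do not set the genes apart. The median log2 difference of the 9 genes was 0.80 in L and 1.26 in CS, beside -0.00143 and 0.0114 over all genes tested, and 0.66 and 0.42 without mouse 552. Markers of some other cells lay higher in HNKO as well. Other lists overlapped widely in L. Kupffer cell and macrophage markers summed to 383 to 511 CPM in WT and 349 to 544 CPM in HNKO, and endothelial markers to 288 to 327 against 294 to 366 CPM. In L the cholangiocyte markers summed to 50.8 to 69.2 CPM in WT and 86.9 to 1440 CPM in HNKO, with 4 of 8 called higher (3 of 8 without mouse 552), the lymphocyte markers to 17.4 to 22.1 against 24.2 to 47.4 CPM and the stellate cell and fibroblast markers to 287 to 443 against 434 to 1060 CPM. Without mouse 552 the upper ends of these lists in HNKO L were 386, 30.8 and 657 CPM. In CS the cholangiocyte markers summed to 7.18 to 24.8 CPM in WT and 26.5 to 180 CPM in HNKO (up to 159 without mouse 552). The endothelial markers in CS summed to 332 to 663 against 472 to 1210 CPM (up to 971 without mouse 552), and none of the markers of these 2 lists was called in CS. Their part in the differences of the 9 genes was not tested. Top2a in CS differed by 3.03 ± 0.82 (adjusted p = 0.0981) with mouse 552 and 1.14 ± 0.50 (adjusted p = 0.513) without it, and Ccna2 in CS by 2.46 ± 0.76 (adjusted p = 0.135) and 0.28 ± 0.37 (adjusted p = 0.872). Mki67 in L differed by 1.91 ± 0.86 (adjusted p = 0.238) with that mouse and 0.66 ± 0.55 (adjusted p = 0.676) without it.

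Mcm2, and Ccnd2 in L, depended less on that mouse. Mcm2 in CS was at 2.24 to 4.90 CPM in WT and 4.27 to 16.9 CPM in HNKO, with only HNKO mouse 546 below the WT maximum, and differed by 1.26 ± 0.29 (adjusted p = 0.0916), or 0.88 ± 0.25 without mouse 552 (adjusted p = 0.267). It was called without mouse 540, 544 or 546 (adjusted p = 0.0479, 0.0199 and 0.0257). Ccnd2 in L was at 8.10, 10.6, 8.27, 8.95 and 10.2 CPM in WT and at 14.7, 12.0, 13.6, 14.2, 13.2 and 14.7 CPM in HNKO. These ranges did not overlap, and 2.08% of all genes tested lay wholly higher in HNKO in this way. The fitted difference was 0.57 ± 0.28 (adjusted p = 0.293) in the fit of all 6 groups, and 0.58 (adjusted p = 0.0315) when only the L groups were fitted. In CS Ccnd2 differed by 0.72 ± 0.27 (adjusted p = 0.208), and by 0.42 ± 0.25 without mouse 552 (adjusted p = 0.664). Ccnd1 lay higher in HNKO in L (0.61 ± 0.42) and CS (0.59 ± 0.40), and Ccne1 and Ccne2 were between -0.19 and 0.48 in both, none called.

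CS was last compared with L, which differed in lobe and in cell content as well as in isolation. None of the 9 genes was called in WT or in HNKO by edgeR or DESeq2, and 0 had an unadjusted p under 0.05 in either genotype, where edgeR called 3.50% and 5.37% of all genes tested. The log2 changes ran from -0.46 to 0.46 in WT and from 0.14 to 0.62 in HNKO. Without mouse 552 the HNKO changes ran from -0.77 ± 0.36 (Ccna2, edgeR unadjusted p = 0.0426, adjusted p = 0.294) to 0.57 ± 0.65 (Ccne1). In that fit the HNKO changes of Ccnd2, Cdk1, Mki67 and Top2a were below 0 as well. Of the other lists, the antiproliferative gene Btg2 rose in WT (4.32 ± 0.36) and HNKO (4.06 ± 0.33), the matrix protein gene Ccn1 rose in both (3.3 ± 0.38 in WT, 2.96 ± 0.35 in HNKO), and Myc rose in WT (1.7 ± 0.47).

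**Figure D5:**
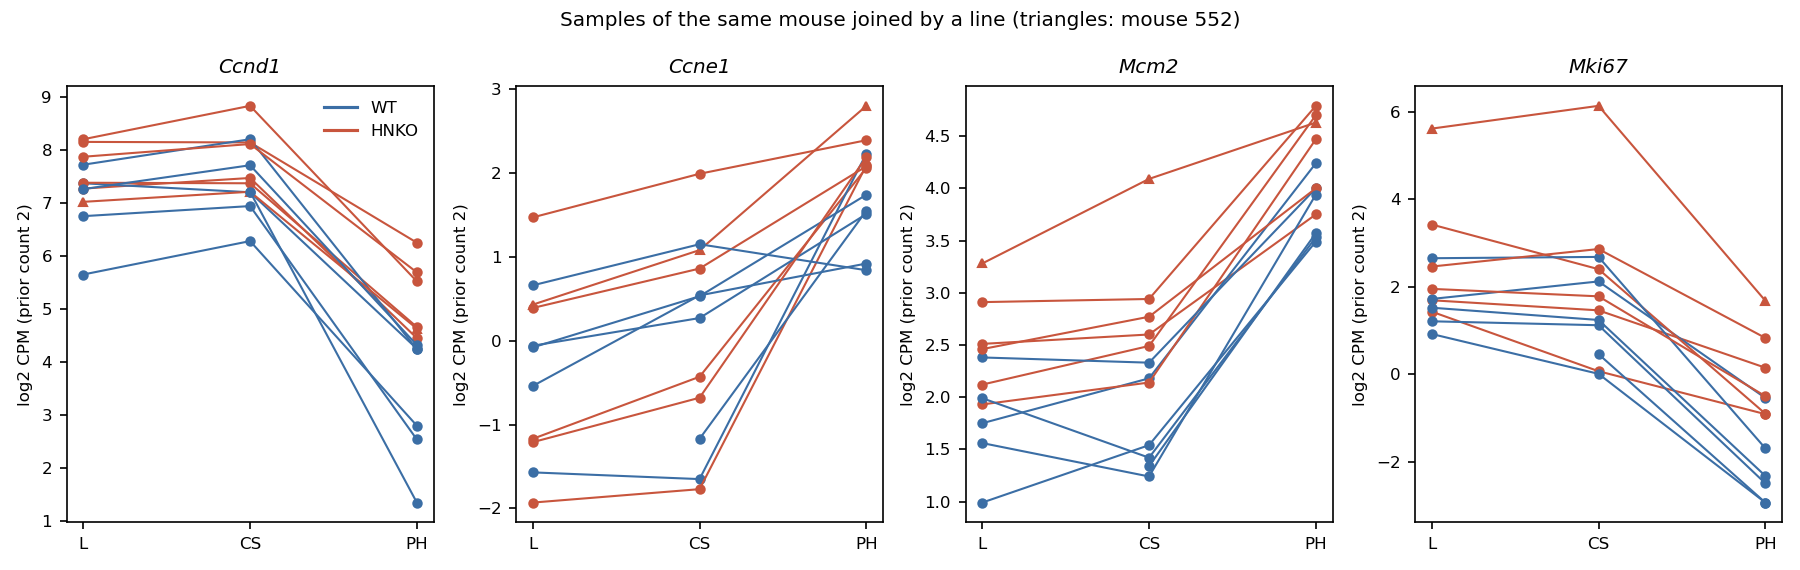
Levels of Ccnd1, Ccne1, Mcm2 and Mki67 on a log2 CPM scale with a prior count of 2 (y axis) in L, CS and PH (x axis), with the libraries of 1 mouse joined by a line. From CS to PH Ccnd1 and Mki67 fell and Mcm2 rose in 12 of 12 mice, and the order of mice for Ccne1 in L and CS was not kept in PH.

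Mice kept their own levels of several of these genes from L to CS. Deviations from the group means were correlated between libraries of the same mouse, in a set of 30 correlations chosen after seeing the data, with 100000 permutations within genotype. Ccne1 in L and CS had r = 0.97 (rho = 0.96, permutation p = 0.00019 and 0.00049, adjusted p = 0.0029 and 0.0049, n = 11 mice), and r = 0.95 without mice 542 and 546. Ccnd1 had r = 0.92 (rho = 0.94, permutation p = 0.00043 and 0.00034, adjusted p = 0.0043 and 0.0049), and 0.88 without mice 552 and 556. Mki67 had r = 0.94 (rho = 0.91, permutation p = 0.00012 and 0.00028, adjusted p = 0.0029 and 0.0049), and 0.79 without mice 548 and 552. For Cdk1 the relation rested on the mice farthest from the median, with r = 0.55 (rho = 0.25, permutation p = 0.11 and 0.48, adjusted p = 0.18 and 0.62) and -0.31 without mice 540 and 552. Ccnd2 showed no such relation (r = -0.12, rho = -0.17). Ccna2 went from r = 0.93 to 0.66 without mice 540 and 552, and Ccnb1 from 0.84 to 0.43 without mice 552 and 562. Without their 2 farthest mice, Ccne2, Top2a and Mcm2 had r = 0.91, 0.73 and 0.77. From CS to PH the Ccne1 relation was r = -0.21 (rho = -0.15, permutation p = 0.51 and 0.64, adjusted p = 0.57 and 0.71, n = 12 mice), and that of Mki67 was r = 0.80 (rho = 0.79, permutation p = 0.0023 and 0.0059, adjusted p = 0.012 and 0.035), or 0.69 without mice 540 and 552.

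The genes most like the 10 across the 35 libraries were ranked by Spearman rho, as a description over 3 sample types that differ in most genes. Mcm2 was closest to Piezo1 (0.951), Mlkl (0.946) and Icam1 (0.946), and Ccnd2 to Ckap4 (0.943), Pxdn (0.935) and Ifi203 (0.908). Top2a was closest to Racgap1 (0.915), Ecscr (0.861) and Ube2c (0.86), and Mki67 to Racgap1 and Cenpf (both 0.882) and Ackr1 (0.874). Racgap1 acts in cytokinesis, Cenpf at the kinetochore and Ube2c in the ubiquitination of mitotic proteins, while Ecscr and Ackr1 are known from endothelial cells. Ccnd1 was closest to Cul7 (0.881), Plk5 (0.876) and Serpina6 (0.874), and after group means were removed these fell to 0.224, 0.324 and 0.684. Ccne1 was closest to Abl1 (0.888), Hivep2 (0.887) and Trim8 (0.879), Ccne2 to Bmp2k (0.760), Lonrf1 (0.759) and Ipo5 (0.759), Cdk1 to Nrm and Ppic (both 0.757) and Adam15 (0.743), and Ccna2 to Spata24 (0.71), Racgap1 (0.707) and Neurl1b (0.704).

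Some of the 10 genes share bases with a neighbour, and whether reads were counted by strand is not given in the sources used here, so reads of such pairs cannot be told apart. Ccna2 (1035 counts over all libraries) overlaps Exosc9 on the other strand (11110 counts), and Ccne2 (1268 counts) overlaps Ints8 (13083 counts), so their counts are less certain than those of Ccnd1 (66381 counts), which overlaps LTO1 (7954 counts).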

How the data were processed

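Total RNA (500 ng a sample) of 36 libraries was sequenced after ribosomal depletion with a stranded kit. Per the labels and methods, the authors aligned reads to GRCm38 with STAR (2.7.2b in the submitters' processing notes, whereas the study's methods name an earlier version for these samples) and deposited whole-number counts of fragments per gene from featureCounts 1.6.4, not normalized. Symbols were taken from GENCODE M21 for 54165 of 54232 genes. From the counts, edgeR 4.0.16 quasi-likelihood tests (legacy form) were fitted to 6 groups over 35 libraries with TMM scaling and filterByExpr (minimum count 10), which left 14932 genes. Genes not tested held 0.0856% of counts. Calls needed a p below 0.05 after Benjamini-Hochberg adjustment over every gene tested. Fold changes are log2 with their SE. CPM values rest on 8698735 to 20350519 counts a library, and values near 0 on few reads. On simulated counts for the genotype effect in PH (14932 genes, 200 changed), 72% of 2-fold and 91% of 4-fold changes were recovered, with 2.4% of calls false. The simulated libraries were independent, with no mouse effect and no other difference between groups, so these rates need not hold for the calls here.

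The members and lists were chosen with earlier results of these data known. Named genes were the 10 members, of each list up to 4 with the smallest p, and the 3 most similar genes of each member, predicted genes left out. The mouse number of the labels joins libraries of 1 animal, and libraries of the same mouse deviated together (median correlation 0.32 for L with CS, 0.10 for L with PH and 0.16 for CS with PH, against -0.039, -0.016 and -0.028 between mice). Alternatives were other size factors, DESeq2 1.42.0, no filter, the newer edgeR form, all 36 libraries, only the groups compared, mouse as a block, and each mouse left out. P-values rest on these mice only. The main fit treats libraries of the same mouse as independent and shares its estimate of spread over all 6 groups. Its p-values therefore do not measure the spread between mice alone.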

Additional observations from a re-analysis of the deposited data

Results flagged for a closer look

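Of 60 sets of values (10 genes in 6 groups), 18 held a sample far from the others by Dixon's test. For independent, normally distributed values the test flags about 1 group in 20 by chance. These CPM share mice across genes and in places rest on few counts, so that rate need not hold here. Of the 18, 15 came from mouse 552. In its L library these were Mki67 at 48.8 CPM, Top2a at 26.6, Ccna2 at 16.9, Cdk1 at 10.9 and Ccnb1 at 8.14 CPM. In its CS library they were Mki67 at 70.1 CPM, Top2a at 43.3, Ccnd2 at 29.5, Ccna2 at 24.0, Cdk1 at 18.3, Mcm2 at 16.9 and Ccnb1 at 10.5 CPM. In its PH library they were Top2a at 2.6 CPM, Ccna2 at 1.77 and Ccnb1 at 0.433 CPM. The other 3 were Ccnd2 at 16.3 CPM and Mki67 at 0.556 CPM in the PH library of WT mouse 544, and Ccne2 at 3.46 CPM in the PH library of HNKO mouse 546.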

How the results depend on the processing

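Of 25 gene results called, 20 kept direction and call under every alternative run, and 5 lost the call under at least 1: Ccnd1 and Ccne2 between genotypes in PH, Ccne1 from CS to PH in WT, Top2a from L to PH in WT (adjusted p up to 0.0567) and Ccna2 from CS to PH in HNKO. Another 13 were called under at least 1 alternative. The number of genes called between genotypes in PH, 2, was 1 with no filter on low counts, 1 with all 36 libraries and 0 with only the groups compared. In L it rose from 0 to 1 with only the groups compared, and in CS from 0 to 3 with DESeq2. With mouse as a replicate block the genotype difference in PH minus CS had 1 call in place of 0, and the calls of Top2a in WT and Ccnd2 in HNKO from CS to PH were gained. No other call of these genes changed with the block.

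With each mouse left out in turn, the count ran from 0 to 3 for genotype in CS and 1 to 4 for genotype in PH. For PH against CS it ran from 4 to 6 (WT) and 5 to 7 (HNKO). For PH against L it ran from 5 to 7 (WT) and 6 to 6 (HNKO). The shares of all genes called in those fits, and under the alternatives above, are not given here. Whether these counts moved with the calls over all genes was not tested. The uncalled genotype differences of the E cyclins changed sign with single mice: Ccne1 ran from -0.38 to 0.65 in L and -0.06 to 0.84 in CS, and Ccne2 from -0.06 to 0.45 in L and -0.33 to 0.02 in CS. Cdk1 from CS to PH in HNKO ran from -1.42 to 0.14, the latter without mouse 552. The cause was not tested. Of 60 group levels, 7 moved by more than 1 SD on total counts without TMM. In WT PH, Mki67 rests on 0 to 14 counts a library and Ccnb1 on 0 or 1, and whether depth or the spread between mice limited the calls was not tested.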
